A study of Homo sapiens with 6 samples.

Results

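TncRNA and mascRNA are names of 2 probes that read RNAs from neighbouring loci on human chromosome 11. They were found by the transcript name that the scanner output gives, and they are 2 of 60596 target probes used and of 1365 probes with a name. TncRNA is listed in RefSeq (assembly GRCh38.p14) as another name of NEAT1, and mascRNA matched the RefSeq gene MASCRNA. Each had 1 spot per array, with probe names ending in the same design number, and no sequence or genome position of either probe was used here.

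NEAT1 is a long non-coding RNA that stays in the nucleus, where its long form is the scaffold on which proteins assemble into paraspeckles, bodies that hold back RNAs and RNA-binding proteins. MALAT1 is an abundant nuclear RNA of nuclear speckles. Its 3′ end is folded like a transfer RNA and is cut off by RNase P, and the small piece, mascRNA, is exported to the cytoplasm. The pair is therefore nuclear by origin, while finished mascRNA is known as a cytoplasmic RNA. In the RefSeq table, MASCRNA is 58 bases long and lies inside MALAT1, 342 bases before its end, and inside TALAM1, an antisense RNA. NEAT1 and MALAT1 have 3 listed genes between them, namely FAUP4, ENEMAL and LINC02736. The files do not say which of the 2 NEAT1 transcripts in RefSeq the TncRNA probe reads. Whether the mascRNA probe also reads uncut MALAT1 was not tested.

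The cells were MDA-MB-231, an established human breast cancer line, exposed for 24 h to PBS as the control, LPS, IL1b, TNFa, IL6 or TGFb. LPS is a bacterial cell wall component sensed by TLR4, IL1b and TNFa are inflammatory cytokines, IL6 signals through STAT3 and TGFb through SMAD proteins. The study was set up as a search for long non-coding RNAs that respond to inflammation. Each treatment had 1 array of Cy3-labelled material, so differences cannot be checked against replicates, p-values are not given, and precision is limited by how few arrays there are. Doses are not in the labels. The signal is from the RNA of a whole culture, in which fewer cells making an RNA and less of it per cell cannot be told apart. The 11 marker genes listed for the line and for other cell types were not among the named probes, so the cell type was not checked here.

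Arrays differed as wholes. The share of target probes well above background, a flag set per spot by the scanner software, ran from 33.2% under PBS to 68.4% under IL6. Among 600 negative control spots per array, 0.5% carried that flag under PBS, 1.83% to 2.33% under LPS, IL1b and TNFa, 12.8% under IL6 and 11.2% under TGFb. Levels below are log2 intensities after quantile normalization over the 6 arrays. Over the 19077 probes detected on all 6 arrays, meaning flagged as well above background on each, the robust SD of differences was 0.68 to 0.90 for the 5 pairs with PBS and 0.22 to 0.96 for the other 10 pairs. This spread is taken over different probes and mixes treatment and technical differences. It does not measure how a single probe varies between replicate arrays, and differences are set against it below as a description only.

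TncRNA stood lowest on the PBS array and higher on all 5 treated arrays. Its log2 level was 11.96 under PBS, 13.52 under LPS, 13.38 under IL1b, 13.31 under TNFa, 13.30 under IL6 and 12.80 under TGFb. The values under LPS, IL1b, TNFa and IL6 lay within 0.21 of each other, TGFb was below them, and PBS was below TGFb. The nearness of IL6 to LPS depended on the scaling, since their differences from PBS were 0.76 and 1.74 by the 75th percentile of all target probes and 0.95 and 1.62 by the median of the detected probes. The spot was well above background and unsaturated on every array. Before any normalization the processed signal was 1930 under PBS, 11498 under LPS, 18340 under IL1b, 9870 under TNFa, 12296 under IL6 and 7419 under TGFb. It was at least 122 times the 95th percentile of the negative control spots on each array, and 0 of 600 such spots reached it.

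**Figure D1:**
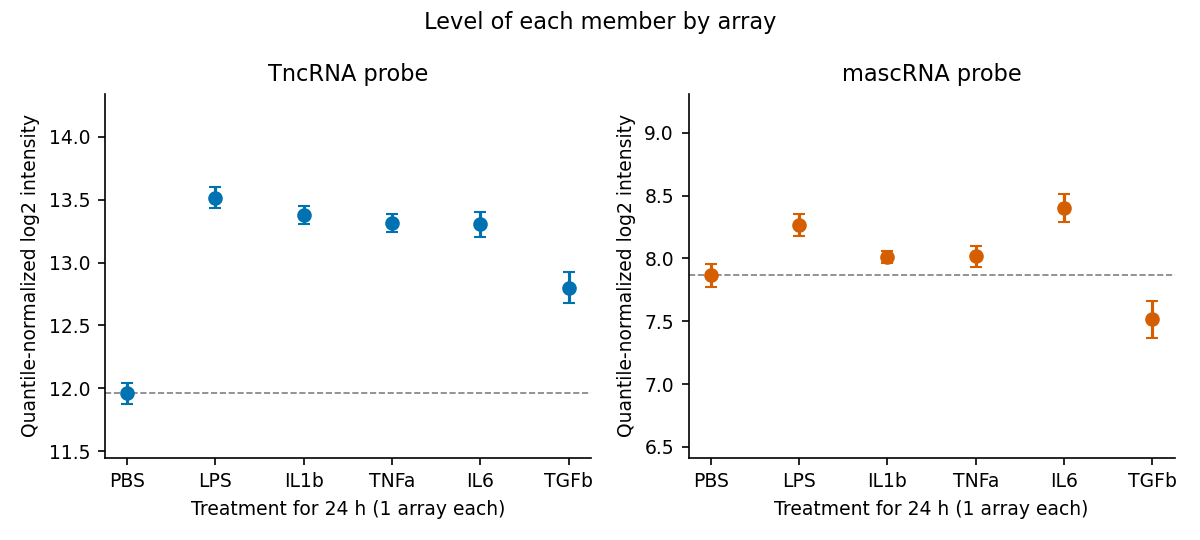
Quantile-normalized log2 intensity (vertical axes) of the TncRNA probe, left, and the mascRNA probe, right, on the 6 arrays, with a dashed line at the PBS level. Points are single spots, and bars are ±1 SD between repeat spots of mRNAs of like brightness on that array, which covers spot noise alone. TncRNA lies at 11.96 under PBS and at 12.80 to 13.52 with the stimuli, while mascRNA lies between 7.52 and 8.40.

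Spot noise was taken from the mRNAs printed 10 times on each array. Among those within 2 log2 units of TncRNA, the pooled SD between repeat spots was 0.068 to 0.12 over the 6 arrays. The difference of TncRNA from PBS was 1.56 under LPS (2.94-fold), 1.42 under IL1b (2.68-fold), 1.36 under TNFa (2.56-fold), 1.35 under IL6 (2.54-fold) and 0.84 under TGFb (1.79-fold). The standard errors of these 5 differences from spot noise alone were 0.12, 0.11, 0.11, 0.13 and 0.15. Each difference exceeded that noise. Set against the spread of the same pair of arrays, it was 2.29 robust SDs under LPS, 1.78 under IL1b, 1.84 under TNFa, 1.53 under IL6 and 0.94 under TGFb, so that the TGFb difference was within the spread.

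TncRNA was at least 2-fold higher than PBS on 4 of 5 treated arrays, and mascRNA passed 2-fold on 0 of 5, with no test in either case. Over the 8 scalings of the arrays tried, TncRNA was at least 2-fold higher on 3 to 5 treated arrays, and mascRNA on 0 except when arrays were scaled to the repeat-spotted mRNAs, where it was on 1 (IL6, 1.37). The 8 are not independent, since the authors' deposited values and the inclusion of flagged spots nearly repeat the quantile result. Past 2-fold in either direction were 12% of the 19077 probes detected on all arrays under LPS, 18% under IL1b, 17.7% under TNFa, 27.9% under IL6 and 28.5% under TGFb. In the higher direction alone, 6.99% of them passed 2-fold under LPS, 9.8% under IL1b, 9.29% under TNFa, 9.88% under IL6 and 10.2% under TGFb. A difference as high as that of TncRNA was seen in 1.42% of these probes under LPS, 3.83% under IL1b, 4.49% under TNFa, 4.82% under IL6 and 14.0% under TGFb. All 5 comparisons rest on the same PBS array. Of the detected probes, 2.6% were at least 2-fold higher on the LPS, IL1b, TNFa and IL6 arrays together, and PBS was the lowest of the 6 arrays in 19.9%.

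Set against the median of the other 5 arrays, TncRNA was off by -1.36 under PBS. The same difference was 0.21 under LPS, 0.08 under IL1b, 0.01 under TNFa, -0.01 under IL6 and -0.51 under TGFb. By this measure the PBS array alone passed 2-fold, as it did in the lower direction in 6.53% of detected probes. Scaled to the 75th percentile of all target probes, TGFb passed it too, at -1.17. Neighbours in the order of TncRNA levels differed beyond the robust SD of their pair at 1 place only, between TGFb and IL6 (0.50 against 0.40). Between these arrays 25.9% of detected probes differed at least as much, in either direction. The gap from PBS to TGFb was 0.84 against 0.90, and from IL6 to TNFa, TNFa to IL1b and IL1b to LPS the gaps were 0.01, 0.07 and 0.14 against 0.69, 0.25 and 0.22.

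mascRNA ranged over 0.89 log2 units on the 6 arrays, beside 1.56 for TncRNA, but over the 5 treated arrays alone TncRNA ranged over 0.72, less than mascRNA. The lowest mascRNA array was TGFb. The mascRNA log2 level was 7.86 under PBS, 8.27 under LPS, 8.01 under IL1b, 8.02 under TNFa, 8.40 under IL6 and 7.52 under TGFb. IL6 was highest, IL1b and TNFa were nearly equal, and PBS lay between TGFb and IL1b. The difference from PBS was 0.40 under LPS, 0.15 under IL1b, 0.15 under TNFa, 0.54 under IL6 and -0.35 under TGFb. Each was at most 0.61 robust SDs of its pair of arrays, and the spot noise of the difference was 0.10 to 0.17, from only 1 to 3 mRNAs of like brightness per array. Against the median of the other 5 arrays, mascRNA was off by -0.15 under PBS, 0.26 under LPS, -0.01 under IL1b, 0.01 under TNFa, 0.39 under IL6 and -0.50 under TGFb. No neighbours in the order of its levels differed beyond the spread of their pair. Among all 15 pairs of arrays 2 did, LPS over IL1b (0.26 against 0.22) and IL6 over TGFb (0.89 against 0.40), while for TncRNA 5 did, the 4 of PBS with LPS, IL1b, TNFa and IL6 and that of IL6 with TGFb. Differences at least as large, in either direction, were seen in 28.0% and 10.3% of detected probes for the mascRNA pairs. For the TncRNA pairs the shares were 1.96%, 5.23%, 6.89%, 16.6% and 25.9%. How many pairs pass for other probes was not counted, so whether either count is unusual was not tested. The sign of the mascRNA difference from PBS under TGFb, and with it the lowest array, depended on the scaling. That difference was 0.21 when arrays were scaled to the 75th percentile of the detected probes, and 0.67 when they were scaled to the repeat-spotted mRNAs.

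The mascRNA spot was dimmer than the TncRNA spot. Its processed signal was 99.1 under PBS, 242 under LPS, 402 under IL1b, 230 under TNFa, 506 under IL6 and 272 under TGFb. It carried the flag for well above background on all 6 arrays. It stood 6.70 times above the 95th percentile of negative control spots under PBS, 10.7 times under LPS, 12.8 times under IL1b, 11.4 times under TNFa, 10.9 times under IL6 and 4.46 times under TGFb. Under IL6 and TGFb, 1 of 600 negative control spots was as bright or brighter, and on the other arrays 0 were. Without normalization the signal was 2.32-fold to 5.11-fold above PBS on the treated arrays, beside 3.84-fold to 9.50-fold for TncRNA. The detected probes as a whole were also brighter without normalization, with a median log2 difference from PBS of 0.75 to 1.59 over the treated arrays.

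**Figure D2:**
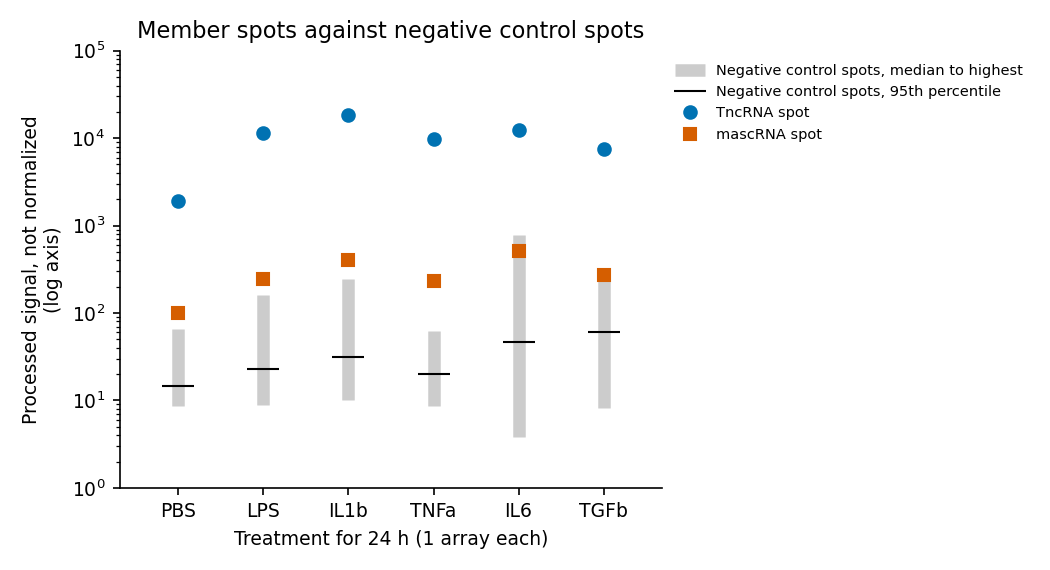
Processed signal of the TncRNA and mascRNA spots before normalization (vertical log axis) on each array, with the 600 negative control spots as a grey bar from their median to their highest value and a black line at their 95th percentile. TncRNA lies above every negative control spot, while under IL6 and TGFb 1 negative control spot reaches mascRNA.

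Since mascRNA is cut from MALAT1, its making starts at the MALAT1 start sites, and the RefSeq windows around these are shown because the probe's own sequence was not used. RefSeq (GRCh38.p14) gives 2 windows of 300 bases on the plus strand, each from 250 bases before a start site to 50 after it. Window 1 is chr11:65497488-65497787 and window 2 is chr11:65498795-65499094. Capitals mark GC boxes (GGGCGG on either strand) and the TATA box (TATAAA).
MALAT1 window 1: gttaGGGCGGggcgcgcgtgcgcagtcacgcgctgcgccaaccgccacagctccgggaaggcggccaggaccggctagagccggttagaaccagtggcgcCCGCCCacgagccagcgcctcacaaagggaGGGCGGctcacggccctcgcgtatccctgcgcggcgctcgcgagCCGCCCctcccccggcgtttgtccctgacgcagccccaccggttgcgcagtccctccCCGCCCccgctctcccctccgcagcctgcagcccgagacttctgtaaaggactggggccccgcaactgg
MALAT1 window 2: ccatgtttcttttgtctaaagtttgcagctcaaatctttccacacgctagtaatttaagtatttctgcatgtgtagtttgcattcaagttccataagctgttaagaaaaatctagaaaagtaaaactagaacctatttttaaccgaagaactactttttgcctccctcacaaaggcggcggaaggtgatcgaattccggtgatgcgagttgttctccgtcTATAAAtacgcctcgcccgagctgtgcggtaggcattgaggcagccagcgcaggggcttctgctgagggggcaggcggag
Window 1 held 5 GC boxes and no TATA box, and 73.7% of its bases were G or C. Window 2 held no GC box and a TATA box at position -30 from the start, with 46.0% G or C. Of 35116 RefSeq windows, 45.0% held a GC box and 11.5% held TATAAA, and their median G and C content was 58.7%. Neither window held the kB consensus (in 5.91% of all windows), the STAT motif TTCNNNGAA (7.66%), the AP-1 motif TGANTCA (7.71%) or the SMAD palindrome GTCTAGAC (0.202%). All motifs were searched on both strands, and no matches of different motifs overlapped. A match of letters is a description of the window and not a bound site. NEAT1 and MASCRNA were not matched in the table of windows.

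The 2 members were then set side by side, with each probe's difference from PBS and not their levels, since probes differ in brightness for reasons of their own. Relative to PBS, TncRNA stood higher than mascRNA on every treated array. The excess was 1.15 under LPS, 1.28 under IL1b, 1.21 under TNFa, 0.81 under IL6 and 1.19 under TGFb, which is a 2.23-fold, 2.42-fold, 2.31-fold, 1.75-fold and 2.28-fold higher ratio of the signals than on the PBS array. The ratio of the 2 signals within an array does not depend on a scale factor for the array. Taken from the signals without normalization, the excess was 1.28 under LPS, 1.23 under IL1b and 1.14 under TNFa, but 0.32 under IL6 and 0.49 under TGFb. The excess was thus above 2-fold under LPS, IL1b and TNFa by quantile normalization, by cyclic loess and without normalization. Under IL6 it was 0.32 to 0.90 and under TGFb 0.49 to 1.21. The other scalings add nothing here, since a scale factor cannot change the excess and the rest nearly repeat the quantile result. A ratio shows unequal change and not which of the 2 probes was constant. The spread of such an excess over other pairs of probes was not taken, so whether this one is unusual was not tested. For single detected probes, the robust SD of the difference from PBS was already 0.68 to 0.90.

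**Figure D3:**
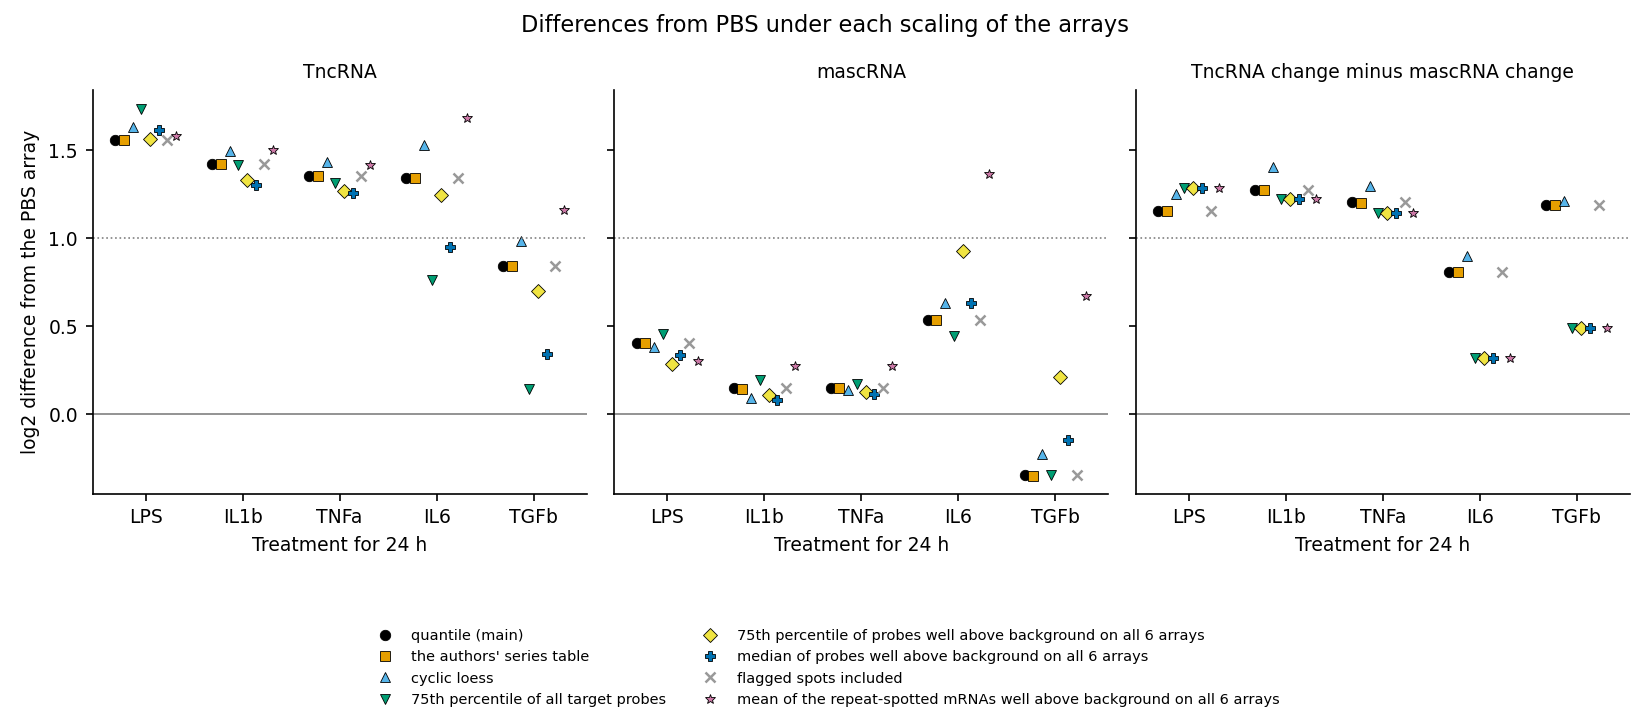
Log2 difference from the PBS array (vertical axis, dotted line at 2-fold) for TncRNA, for mascRNA and for the difference between the 2, on the 5 treated arrays under 8 ways of scaling the arrays. TncRNA lies above 0 throughout, with its widest range under TGFb (0.14 to 1.16). mascRNA under TGFb lies on both sides of 0 (-0.35 to 0.67).

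The TncRNA difference from PBS kept its sign under all 8 scalings, which are not independent of each other. It was 1.56 to 1.74 under LPS, 1.31 to 1.5 under IL1b and 1.26 to 1.44 under TNFa, and hence at least 2-fold throughout. Under IL6 it was 0.76 to 1.68 and under TGFb 0.14 to 1.16, on both sides of 2-fold. For mascRNA the range was 0.28 to 0.45 under LPS, 0.08 to 0.28 under IL1b, 0.12 to 0.28 under TNFa and 0.45 to 1.37 under IL6.

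IL6 and TGFb were compared directly as well, a pair chosen after its values were seen and one that leaves the PBS array out. Both members were lower under TGFb than under IL6, TncRNA by 1.42-fold and mascRNA by 1.85-fold. These differences of -0.50 and -0.89 were 1.25 and 2.20 times the robust SD of this pair, which was 0.40. Differences at least as large, in either direction, were seen in 25.9% of detected probes for TncRNA and 10.3% for mascRNA. Of the detected probes, 54.6% were lower under TGFb than under IL6 and 8.48% differed at least 2-fold, a threshold that neither member reached. The sign held for both under all 8 scalings, which are not independent of each other, at -0.62 to -0.50 for TncRNA and -0.89 to -0.69 for mascRNA. These were also the 2 arrays with the largest share of flagged negative control spots, and the part of that in the result was not tested.

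The named probes with the most similar profiles were sought among 252 others well above background on all arrays. Likeness was the root mean square difference between log2 profiles over the 6 arrays, each centred on its own mean. For TncRNA these were uc.141-, read from an ultraconserved genomic region (0.16), PRMT1, an arginine methyltransferase (0.21), p53mRNA (0.26), EIF3D, a subunit of translation initiation factor 3 (0.26), and uc.268-, from another ultraconserved region (0.28). The last characters of the uc. names are strand signs. All 5 were lowest under PBS and, among the treated arrays, lowest under TGFb, an order that follows largely from choosing them for likeness to TncRNA. Under LPS they were 1.41, 1.09, 1.18, 0.84 and 1.56 above PBS, and under TGFb 0.43, 0.53, 0.16, 0.22 and 0.12. Over the 6 arrays Pearson's r with TncRNA was 0.88 to 0.96, as a description of probes chosen for likeness on the same 6 arrays.

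For mascRNA the nearest were uc.154+ (0.20), uc.45- (0.21), PFN1, the actin-binding protein profilin (0.23), RPLP1, a ribosomal stalk protein (0.24), and H3-3A, a histone H3.3 gene (0.24). Their r with mascRNA was 0.59 to 0.86, again for probes chosen for likeness. All 5 differed from PBS by at most 0.60 on every array. RPLP1 differed by only 0.03 to 0.15, so a nearly flat profile can also lie close to mascRNA by this measure. Under TGFb uc.154+ and uc.45- differed from PBS by -0.11 and -0.28, while PFN1, RPLP1 and H3-3A differed by 0.13, 0.03 and 0.04. The 2 members lay 0.45 from each other, and of the 252 probes 21 were closer than that to TncRNA and 56 to mascRNA.

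**Figure D4:**
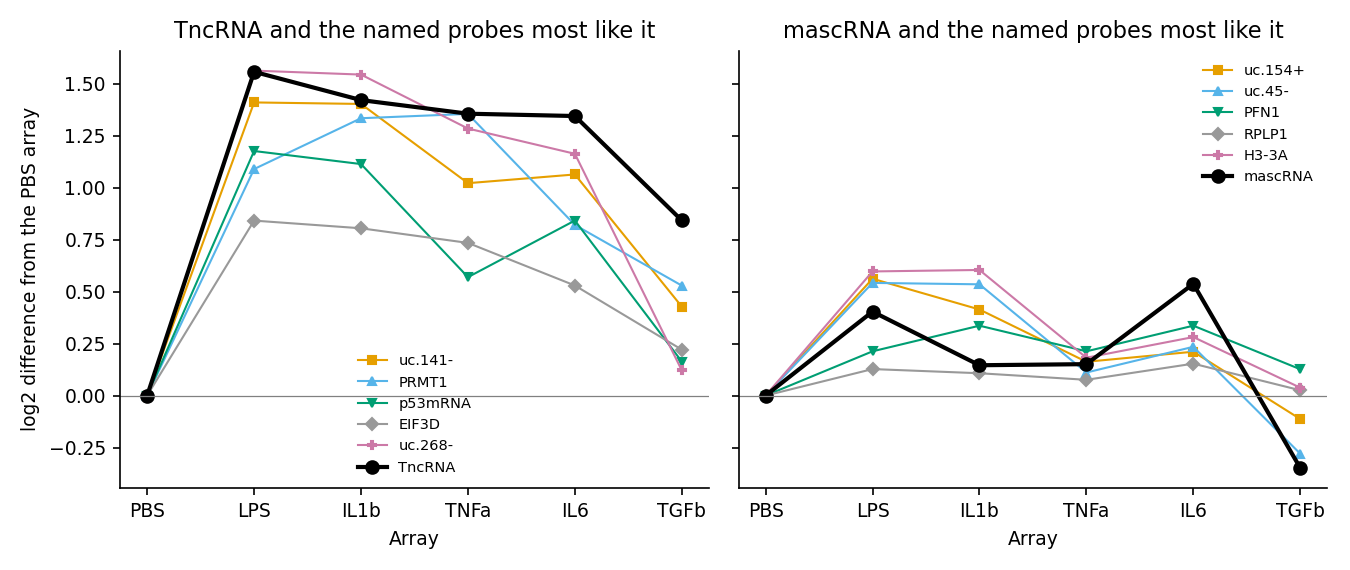
Log2 difference from the PBS array (vertical axis) of TncRNA, left, and mascRNA, right, in black, with the 5 named probes nearest to each in colour. Lines join the arrays of a probe and imply no order. The TncRNA set lies between 0.84 and 1.56 under LPS and between 0.12 and 0.84 under TGFb, while the mascRNA set lies between -0.35 and 0.60.

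The probes were part of a set of 21 that share a design number. Its names include non-coding transcripts, but p53mRNA is by its name an mRNA. Of the other 19, 7 were not well above background on any array and 3 were on all 6. Of those 3, p53mRNA was at least 2-fold higher than PBS on 2 arrays, DHFRupstreamtranscripts was at least 2-fold lower on 2, and AY195961 stayed under 2-fold. TncRNA was higher by at least 2-fold on 4 arrays and mascRNA on 0. In all 73 genes were listed for this comparison. None of those listed as paraspeckle proteins such as NONO and SFPQ, speckle proteins, enzymes that trim mascRNA, other names of both loci, response genes or cell markers was among the named probes, and these genes were not analysed here. Of 9 listed long non-coding RNAs, 2 were found, HOTAIRM1, not well above background on any array, and LUST, well above it on 3.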

How the data were processed

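Transcript levels in MDA-MB-231 cells were measured on 6 arrays, grouped by the treatment in the labels, 1 array per group. Per the labels, the array was an Arraystar product in NimbleGen format, whereas the deposited intensity values come in columns of Agilent Feature Extraction, per the file headers; the conflict is not resolved here. The deposited intensity is the processed signal per spot, which that software corrects for background, and the deposited flags are other per-spot values of 0 or 1. The authors also deposited a table of log2 values, and the submitters' processing notes name RMA, of a version that is not given in these sources. Each column matched the quantile-normalized log2 signals, with a median absolute difference no larger than 0.000613, so its scale and direction are known.

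Outlier-flagged spots were dropped, repeat spots averaged on the log2 scale, and 60596 of 60639 target probes were used. Quantile normalization ran in limma 3.58.1 (R 4.3.3), the rest in Python 3.11.15. No statistical test was run, since each group has 1 array. Probes with a name in the files are called named probes; those given with values were the members, the 5 nearest to each by root mean square difference, and those in the lists or in the members' probe set. The members and lists were chosen with earlier results of these data known. Alternatives were the authors' table, cyclic loess (span 0.7, 3 iterations), 3 scale factors, flagged spots, and thresholds, floor and control of the count; a scale factor from 18 repeat-spotted mRNAs was added after the data were seen.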

Additional observations from a re-analysis of the deposited data

How the results depend on the processing

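A value was taken as unmoved when it stayed within 0.23 of the main one, the robust SD of LPS against IL1b over all probes. The authors' deposited table, cyclic loess and the inclusion of flagged spots moved none of 27 values each, and no difference of at least 2-fold changed sign under any scaling run. Of these, only cyclic loess had room to move a value. The authors' table nearly repeats the main values, and no spot of either member was flagged as an outlier. Scaling to the 75th percentile of all target probes gave TncRNA minus PBS as 0.76 under IL6 and 0.14 under TGFb. Against the median of the other 5 arrays it gave 0.97 under LPS, 0.66 under IL1b, 0.55 under TNFa, -0.55 under IL6 and -1.17 under TGFb. Scaling to the median of the detected probes gave 0.95 and 0.34 for the first pair and 0.67, 0.36, 0.31, -0.31 and -0.92 for the rest, with mascRNA at -0.26 under TGFb against the other 5. Their 75th percentile moved mascRNA, to 0.93 under IL6 and 0.21 under TGFb against PBS, and to 0.80 and 0.086 against the other 5. The repeat-spotted mRNAs gave TncRNA minus PBS as 1.68 under IL6 and 1.16 under TGFb, and 0.27 under IL6 against the other 5. For mascRNA they gave 1.37 and 0.67 against PBS, and 0.025 under LPS, 1.09 under IL6 and 0.40 under TGFb against the other 5. Every scale factor gave an excess of TncRNA over mascRNA of 0.32 under IL6 and 0.49 under TGFb, which follows from its construction. The median shift of the detected probes from PBS was -0.20 to -0.04 under quantile normalization, -0.38 for IL6 and -0.39 for TGFb by the 75th percentile of all probes, and 0.54 and 0.63 by the repeat-spotted mRNAs. The count of members at least 2-fold off PBS was 1 under LPS, IL1b, TNFa and IL6 and 0 under TGFb. It became 0 with each of the first 4 at 3-fold or against the median of the other 5 arrays, and 1 under TGFb at 1.5-fold, and it did not change without a floor or with both arrays well above background. A normexp correction was not run, since mean and background signals were not used here. No paired analysis was possible because each group has 1 array and the result comes from no test. The dim mascRNA spot and the 1 array per group limit these values, and the causes of the moved values other than the excess were not tested.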
